A study of Homo sapiens with 16 samples.

Results

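Clustered histone genes are the protein-coding genes for the linker histone H1 and the core histones H2A, H2B, H3 and H4 that carry numbered cluster symbols. The members were all protein-coding features of the deposited expression table whose symbol is H1- followed by a number, or H2AC, H2BC, H3C or H4C followed by a number. The rule used names and no measured values. It found 73 genes among 78986 features: 10 of H1, 17 of H2A, 18 of H2B, 13 of H3 and 15 of H4. By position, 55 lie in the large cluster on 6p22, 11 in 1q21 and 2 in 1q42, and 5 lie outside these clusters. Those 5 include H1-10 and are not clustered genes in the strict sense, so sums are also given by cluster. A filter of at least 1 CPM (reads per 1000000 assigned reads) in at least 4 of the 16 libraries left 31 of the 73 for testing, among 16218 genes in all: 6 of H1, 9 of H2A, 7 of H2B, 3 of H3 and 6 of H4. The other 42 members reached at most 1.3 CPM in any library, and 7 of them were at 0 in all 16, where 1 read was worth 0.0836 to 0.101 CPM.

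Core histones form the octamer around which DNA is wound into nucleosomes, and H1 binds the linker DNA between nucleosomes. Most clustered genes are transcribed in S phase, when new chromatin needs histones, and their transcription depends on the coactivator NPAT, a substrate of cyclin E and CDK2. Their mRNAs have no introns and normally end in a conserved stem-loop, bound by SLBP, in place of a poly(A) tail. Some of these genes also give longer, polyadenylated transcripts, and H1-10 belongs to the linker histones made outside S phase.

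The RNA came from T47D, a luminal, estrogen receptor-positive human breast cancer cell line. One genotype carried a control guide and the other lacked FAH (fumarylacetoacetate hydrolase), which completes the breakdown of tyrosine. Each genotype received vehicle or 500 nM abemaciclib, an inhibitor of CDK4 and CDK6 that holds cells before S phase, for 3 days, and each of the 4 groups had 4 libraries. The labels do not say whether replicates were separate cultures or whether knockout cells descend from 1 clone, so p-values measure the spread between these libraries only.

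The 16 libraries held 9915776 to 11963093 assigned reads. FAH was lower in every library labelled knockout, at 6.27 to 7.02 against 25.1 to 28.2 CPM under vehicle and at 5.03 to 6.79 against 22.6 to 25.8 CPM under abemaciclib (two-sided exact permutation p = 0.0286 each, the smallest that 4 against 4 allows). All 10 luminal markers were detected. Their summed level ranged from 9419 to 9589 CPM in control cells under vehicle, 11237 to 11682 under abemaciclib, 13088 to 13485 in knockout cells under vehicle and 15746 to 16015 under abemaciclib. This sum moved with both factors, and its part in the histone results was not tested. Endothelial and basal markers stayed at or below 0.566 CPM each, with CDH5 at 0 in all libraries, leukocyte markers at or below 2.64 CPM, and among fibroblast markers COL1A1 reached 60.6 CPM.

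The end of the mRNA and the promoter are the parts that set these genes apart, and they are shown first. In the GENCODE v29 transcripts, 69 of the 73 members were found, 29 of them among the 31 tested. A stem-loop was sought as 2 arms of 6 bases that pair exactly around a loop of 4 bases, beginning with GG and with a loop of TT, then T or A, then C or T. It was found in 23 members, 13 of them tested, and in 66 of all 58676 genes (0.112%). The 13 tested members carried 3 forms, printed here 5′ to 3′ with the arms in capitals and with T for U.
Form of 9 tested members, among them H2AC6, H2AC8, H2AC25, H2BC8 and H2BC21: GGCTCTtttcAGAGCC
Form of H4C8 and H4C11: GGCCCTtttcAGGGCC
Form of H4C14 and H4C15: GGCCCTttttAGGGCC
The arms of the first form differ from those of the H4 forms in the paired letters, and the last form differs from the second in its loop. The lack of a match says only that these letters are not in the annotated transcript. For 10 of the 13 members the annotation goes on for 100 or more bases after the stem-loop, up to 1917 bases in H2BC26, 1729 in H2BC21, 1655 in H4C8, 1128 in H2AC6 and 1059 in H2BC8. The 435-base transcript of H4C3 had no match and instead ends in a run rich in A, shown here with A in capitals.
Last 20 bases of H4C3: AAAAAAcAAAAAcAAAAAAA
A 20-base window with 18 or more A occurred in 2 of the 69 member genes found, H4C3 and H2BC8. It occurred in 3.82% of all 83129 protein-coding transcripts, a share of transcripts and not of genes. The annotated transcript of H2BC8 ends in 20 A and also holds a stem-loop match. The labels give no step that selects or excludes poly(A) mRNA by name. How fully mRNA that ends in a stem-loop was captured was not tested.

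Promoters came from RefSeq (GRCh38.p14) for 67 members, 29 of them tested, and the 250 bases before the start site were searched. The octamer ATTTGCAT, a POU2F1 motif on either strand, was present in 10 of the 29 tested members against 2.03% of all 27305 genes in the table. All 10 lay in H2A, H2B or H3 genes. The 1 H3 gene had it only in a second RefSeq window, which is also the promoter window of an H2A gene that was not tested. The CCAAT box on either strand was present in 23 of 29, including every H2A, H2B and H3 gene and none of the 5 H4 genes with a promoter, against 37% of all genes. TATAAA on the coding strand was present in 16 of 29 against 8.38%. These matches are descriptions of letters and not of binding. Many H2A and H2B genes start back to back: 11 such pairs were found with 193 to 247 bases between the start sites, and in 4 pairs both genes were tested. For 2 of these pairs the shared window is printed, with 2 single promoters, because their genes carry the genotype and interaction results, in lower case with octamer, CCAAT and TATAAA matches in capitals.
H2BC4 and H2AC6, chr6:26123927-26124171, plus strand: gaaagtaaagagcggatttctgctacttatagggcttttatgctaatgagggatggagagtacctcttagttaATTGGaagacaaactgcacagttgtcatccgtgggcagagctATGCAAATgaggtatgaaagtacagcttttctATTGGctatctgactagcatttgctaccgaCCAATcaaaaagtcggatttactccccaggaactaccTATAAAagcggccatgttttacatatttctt
H2BC8 and H2AC8, chr6:26216689-26216920, plus strand: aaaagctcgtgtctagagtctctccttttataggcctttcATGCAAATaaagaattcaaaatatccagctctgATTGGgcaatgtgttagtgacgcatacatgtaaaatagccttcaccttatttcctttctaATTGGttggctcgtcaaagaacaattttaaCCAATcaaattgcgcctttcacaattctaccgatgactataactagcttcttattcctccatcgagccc
H2BC5, chr6:26157871-26158120, plus strand: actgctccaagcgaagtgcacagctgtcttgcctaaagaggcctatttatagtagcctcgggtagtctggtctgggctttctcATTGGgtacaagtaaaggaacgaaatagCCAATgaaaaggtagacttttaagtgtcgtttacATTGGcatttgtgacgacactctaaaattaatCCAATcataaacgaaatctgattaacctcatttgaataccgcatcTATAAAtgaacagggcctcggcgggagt
H1-2, chr6:26056471-26056720, minus strand: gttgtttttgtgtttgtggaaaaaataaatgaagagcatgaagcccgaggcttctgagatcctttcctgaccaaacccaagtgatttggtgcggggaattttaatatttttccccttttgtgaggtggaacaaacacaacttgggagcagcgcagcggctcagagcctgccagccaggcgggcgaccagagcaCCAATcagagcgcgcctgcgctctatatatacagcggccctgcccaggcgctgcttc
In both shared windows an octamer is printed as ATGCAAAT, its reverse complement. TATAAA is in capitals only where it lies on the printed strand. That of H2BC8, 32 bases before its start on the minus strand, is therefore in lower case.

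Abemaciclib lowered most tested histone genes in both genotypes. Of the 31, 24 fell and none rose in control cells, where 31.1% of all tested genes fell and 19.6% rose. In knockout cells 22 fell and none rose, where 27.4% of all genes fell and 11% rose. At an unadjusted p under 0.05, 0 members were higher in control and 1 in knockout cells, and voom, another limma fit, called 0 and 1. In these bulk libraries, fewer cells in S phase and less histone mRNA per cell cannot be told apart. A call is an adjusted p under 0.05 from limma with the Benjamini-Hochberg correction over 16218 genes, fitted to log2(CPM + 1), which understates the change of low genes. The median log2 change of the 31 was -0.51 in control and -0.45 in knockout cells, against -0.05 and -0.07 over all genes. When libraries were rescaled by median ratios, the all-gene calls split into 4166 higher and 4017 lower in control cells, from 3181 and 5039, and 3173 higher and 2886 lower in knockout cells, from 1780 and 4444. The histone genes then gave 0 higher and 22 lower in control cells and 1 higher and 20 lower in knockout cells.

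H4C3 (chromosome 6, 26103876 to 26104310 in GRCh38, plus strand), an H4 gene of the 6p22 cluster, had the largest drug response of the 31 on the log2(CPM + 1) scale in both genotypes. By the ratio of means the low H1-3 fell further, to 12.7% and 13.2% of vehicle against 16.96% and 21.9% for H4C3, and H1-5 fell to at most 0.340 CPM in any library, a few reads, where no ratio is given. It measured 358, 307, 342 and 373 CPM in the 4 control libraries under vehicle and 53.9, 67.5, 54.05 and 58.5 CPM under abemaciclib. In knockout cells it measured 155, 163, 188 and 181 CPM under vehicle and 48.8, 28.2, 32.9 and 40.1 CPM under abemaciclib. The 4 groups stood apart with no overlap, in the order control vehicle, knockout vehicle, control abemaciclib and knockout abemaciclib. Abemaciclib lowered it 5.89-fold in control cells, from 345 ± 28.2 to 58.5 ± 6.36 CPM (mean ± SD, n = 4; log2 change -2.54 ± 0.09 SE, limma adjusted p = 1.1e-21). It lowered it 4.57-fold in knockout cells, from 172 ± 15.2 to 37.5 ± 8.99 CPM (log2 -2.19 ± 0.09, adjusted p = 8.2e-20).

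The other H4 genes responded less or were not called. H4C11, H4C12, H4C14 and H4C15 fell in both genotypes, while H4C8 (chromosome 6, 26277609 to 26285638, minus strand) did not fall in either. H4C8 measured 2.12, 3.37, 3.12 and 3.02 CPM in control vehicle libraries and 3.08, 2.72, 3.91 and 2.99 CPM with abemaciclib. Knockout libraries measured 3.26, 4.69, 5.55 and 4.25 CPM with vehicle and 5.85, 6.46, 6.03 and 4.45 CPM with abemaciclib. The groups overlapped within each genotype, and the log2 changes were 0.10 (limma adjusted p = 0.56) and 0.31 (adjusted p = 0.063). The second became a call after rescaling of the libraries (0.38, adjusted p = 0.02), after quantile normalization (0.44, adjusted p = 0.0083), with voom (0.38, adjusted p = 0.043), with the replicate block (0.31, adjusted p = 0.043) and after leaving out knockout vehicle replicate 3 (0.40, adjusted p = 0.022) or knockout abemaciclib replicate 4 (0.40, adjusted p = 0.021).

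**Figure D1:**
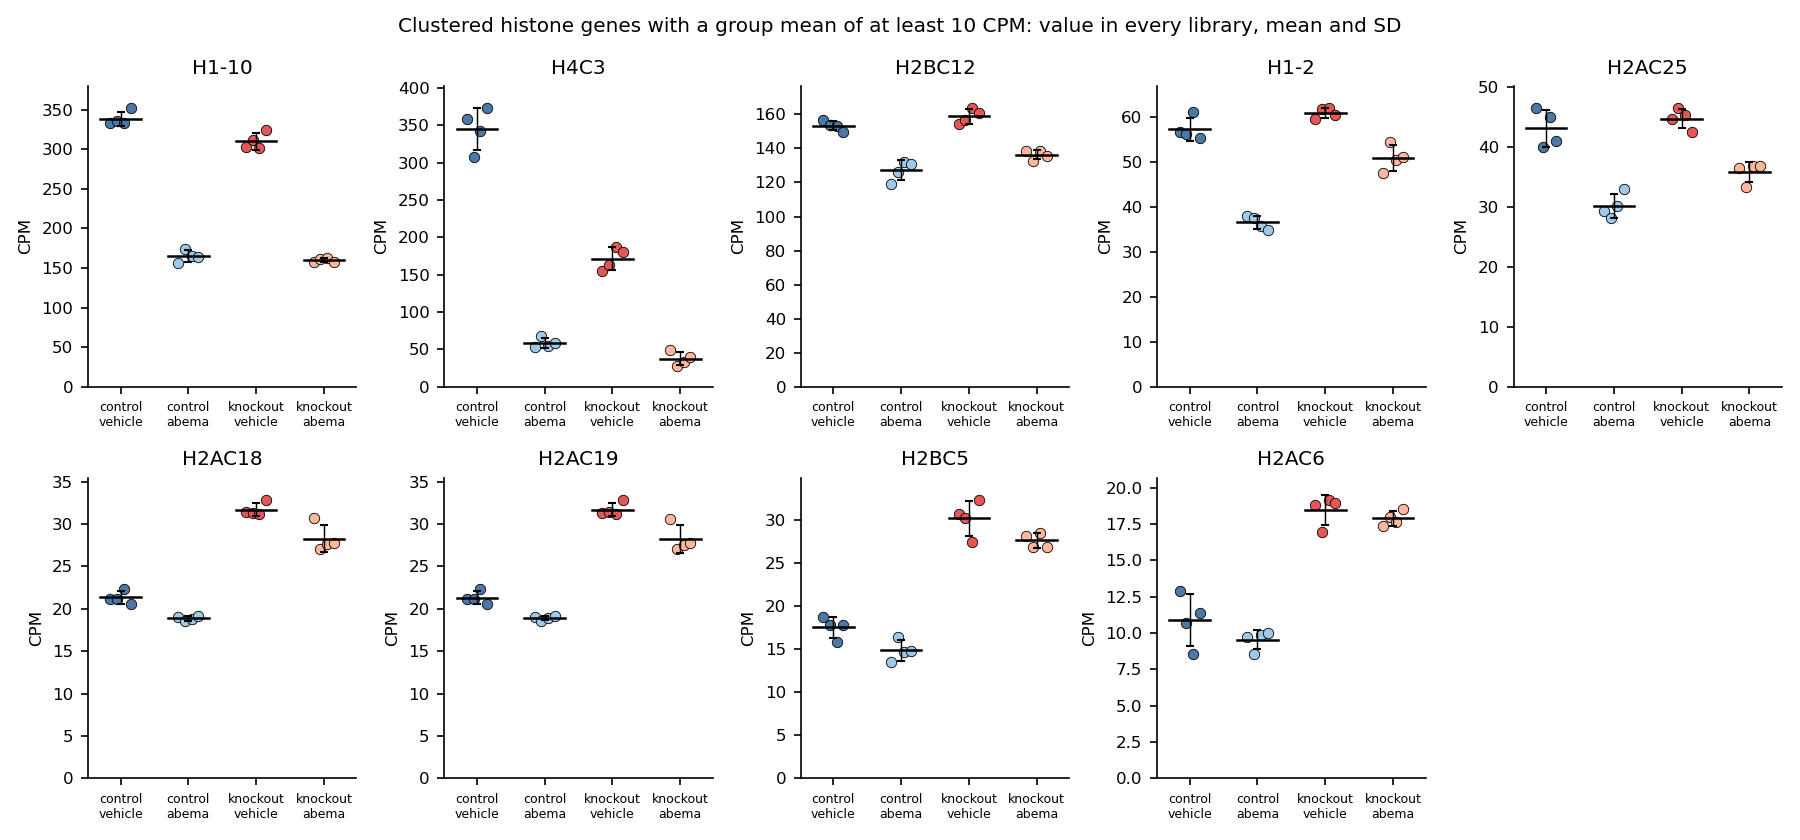
CPM (vertical axes, each from 0) of 9 members with a mean of at least 10 CPM in at least 1 group, in the 4 groups (horizontal axes); points are libraries, lines are means and bars are SD (n = 4). H4C3 falls from 345 to 58.5 CPM with abemaciclib in control cells, whereas H2BC5 and H2AC6 separate by genotype under either treatment.

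All 6 linker histone genes fell with abemaciclib in both genotypes. H1-10 (chromosome 3, 129314771 to 129316277, minus strand) is a linker histone made independently of replication. It measured 333, 336, 333 and 352 CPM in control vehicle libraries and 157, 174, 165 and 164 CPM with abemaciclib, a fall to 48.8% (log2 -1.03 ± 0.03, limma adjusted p = 6.5e-23). In knockout cells it measured 302, 311, 301 and 325 CPM with vehicle and 157, 161, 163 and 158 CPM with abemaciclib, a fall to 51.5% (log2 -0.95 ± 0.03, adjusted p = 6.4e-22). The treated and untreated libraries were far apart in both genotypes. An antisense gene lies at this locus and the strand setting is not given, so reads of both cannot be told apart.

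The replication-dependent H1-3 (26234268 to 26234933), H1-4 (26156354 to 26157107) and H1-5 (27866849 to 27867529), all on 6p22, fell to low levels in both genotypes. H1-3 measured 2.38 to 4.71 CPM in control vehicle libraries and 0 to 0.788 CPM with abemaciclib, and 1.67 to 2.60 and 0.177 to 0.457 CPM in knockout cells. H1-4 measured 3.73 to 6.65 and 0.674 to 1.87 CPM in control cells, and 2.39 to 3.42 and 0.340 to 1.01 CPM in knockout cells. H1-5 measured 1.13 to 1.92 and 0 to 0.340 CPM in control cells, and 0.358 to 1.25 and 0 to 0.182 CPM in knockout cells. For all 3 genes treated and untreated libraries did not overlap in either genotype. The log2 changes were -1.64, -1.41 and -1.08 in control cells and -1.30, -1.22 and -0.61 in knockout cells (limma adjusted p from 2.3e-10 to 0.0021).

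Among the H2A and H2B genes the response to abemaciclib varied widely, with 6 of 9 and 6 of 7 lower in control cells and 7 of 9 and 4 of 7 lower in knockout cells. H2AC20, singled out here after its values were seen, fell most among them in control cells (log2 -1.36 and -0.98, limma adjusted p = 1.7e-12 and 6.0e-09). H2AC8 changed by log2 -1.05 and -0.45 (adjusted p = 2.0e-08 and 0.0048), and H2BC21 fell to 44.3% and 66.2% of vehicle (adjusted p = 1.3e-09 and 1.2e-04). H2AC25 (chromosome 1, 228456979 to 228457873, minus strand) measured 46.4, 40.0, 44.9 and 41.0 CPM in control vehicle libraries and 29.3, 28.1, 30.1 and 32.9 CPM with abemaciclib. The knockout values were 44.6, 46.4, 45.2 and 42.5 CPM with vehicle and 36.4, 33.3, 36.7 and 36.7 CPM with abemaciclib. Neither pair of groups overlapped (log2 -0.50 and -0.31, limma adjusted p = 3.2e-09 and 3.1e-05). H2BC12 (chromosome 6, 27146418 to 27146798, minus strand) measured 157, 154, 153 and 149.9 CPM in control vehicle libraries and 119, 126, 132 and 131 CPM with abemaciclib. Its knockout values were 154, 156, 164 and 161 CPM with vehicle and 138, 133, 139 and 136 CPM with abemaciclib. Treated libraries were lower without overlap (log2 -0.27 and -0.22, adjusted p = 1.2e-07 and 8.7e-06).

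H2AC6 was not called with the drug in either genotype, with log2 differences of -0.16 (limma adjusted p = 0.11) and -0.04 (adjusted p = 0.73). Leaving out control vehicle replicate 3 made the first a call (-0.26, adjusted p = 0.0065). Among the 3 H3 genes, 1 fell in control cells and none passed the test in knockout cells. H2AC18 and H2AC19 fell slightly in both genotypes, by 0.16 to 0.17 on the log2 scale. Neither call held after rescaling (adjusted p from 0.15 to 0.34) or after quantile normalization (adjusted p from 0.20 to 0.39). In knockout cells, leaving out knockout vehicle replicate 4 or knockout abemaciclib replicate 2, 3 or 4 ended both calls (adjusted p from 0.05 to 0.071), and in control cells leaving out control vehicle replicate 3 ended that of H2AC19 (adjusted p = 0.051).

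**Figure D2:**
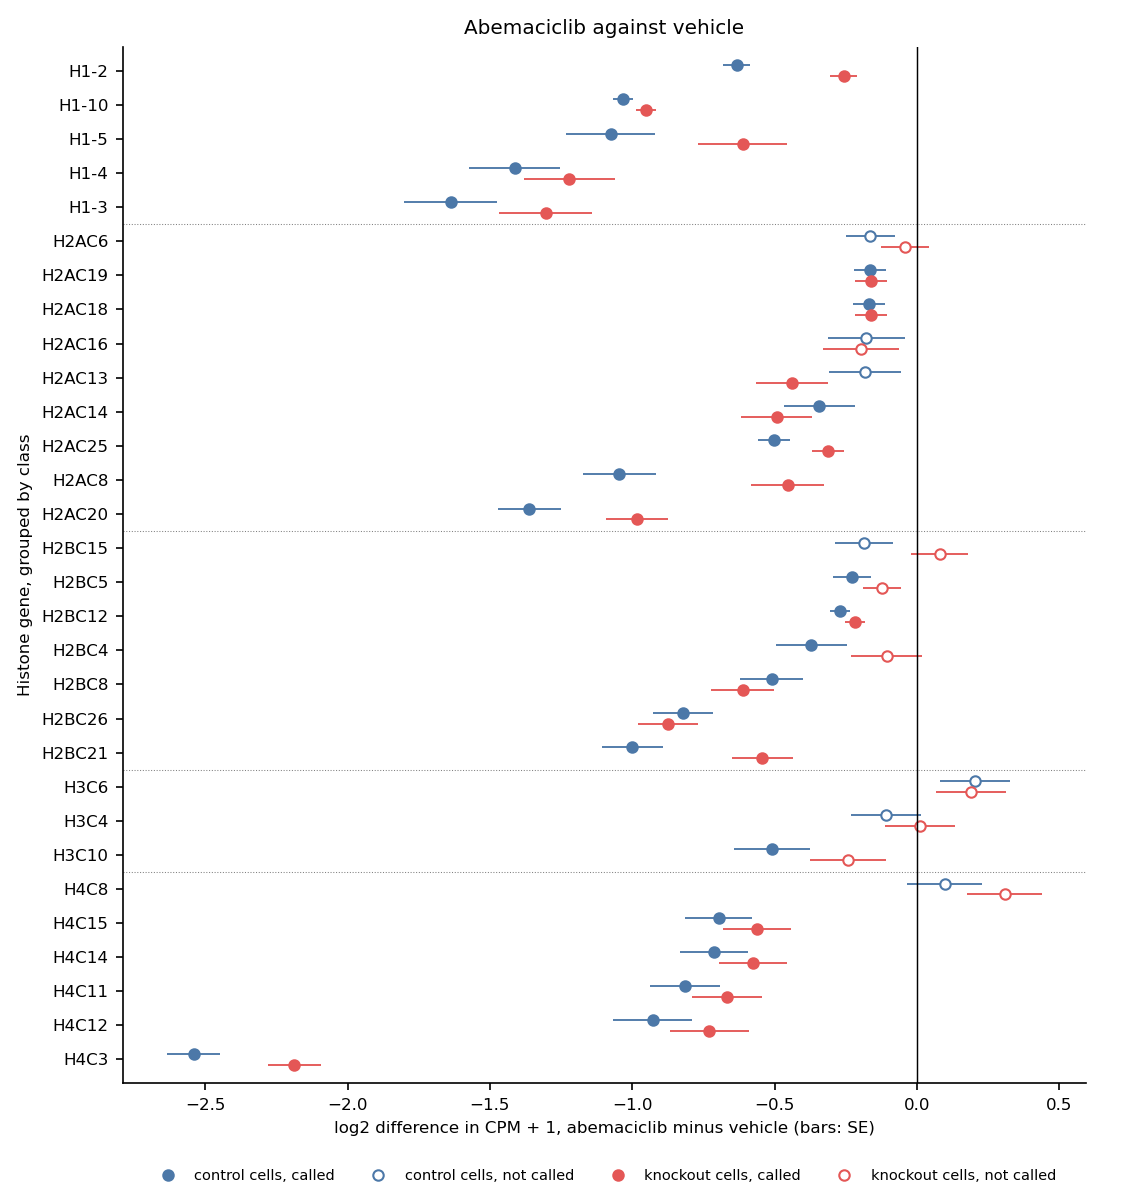
Log2 difference of abemaciclib minus vehicle in CPM + 1 (horizontal axis) for 30 of the 31 tested members (vertical axis, grouped by class) in control and knockout cells; points are limma estimates, bars are SE, and filled points are calls. H4C3 lies at -2.54 and -2.19, and no filled point lies above 0.

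Histone genes differed between knockout and control cells in both directions. Under vehicle, 11 of 31 were higher and 6 lower in knockout cells, where 24.6% of all tested genes were higher and 13.1% lower. Under abemaciclib 18 were higher and 2 lower, where 18.6% of all genes were higher and 11.3% lower. Both genes of the pairs H2AC18 and H2AC19, and H4C14 and H4C15, which share reads, are counted in the 11 and the 18. They are also counted in the 24 and 22 that fell with abemaciclib. The median log2 difference of the members was 0.07 under vehicle and 0.28 under abemaciclib, against 0.06 and 0.04 over all genes. Rescaling gave 9 higher and 7 lower members under vehicle and 16 and 3 under abemaciclib. It also evened the all-gene split, from 3987 higher and 2121 lower to 2825 and 2983 under vehicle and from 3020 and 1837 to 2126 and 2408 under abemaciclib. Both comparisons of genotype and both of treatment share groups with each other, so their counts are set side by side only.

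The genes higher in knockout cells were H2A, H2B, H3 and H4 genes, with H1-2 under abemaciclib as the linker histone among them. H2BC5 (chromosome 6, 26158146 to 26171349, plus strand) measured 18.8, 17.8, 15.8 and 17.8 CPM in control and 30.7, 30.2, 27.5 and 32.3 CPM in knockout libraries under vehicle. Under abemaciclib it measured 13.5, 16.4, 14.6 and 14.8 CPM in control and 28.2, 26.9, 28.5 and 26.9 CPM in knockout libraries. Every knockout library was above every control library. The ratio of means was 1.72 under vehicle and 1.86 under abemaciclib (log2 0.75 ± 0.07 and 0.86 ± 0.07, limma adjusted p = 4.7e-11 and 2.5e-12).

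H2AC6 (chromosome 6, 26124145 to 26139116, plus strand) measured 12.9, 10.7, 8.57 and 11.4 CPM in control and 18.8, 17.0, 19.2 and 18.9 CPM in knockout libraries under vehicle. Under abemaciclib the values were 9.72, 8.59, 9.86 and 10.02 CPM in control and 17.4, 17.98, 17.7 and 18.5 CPM in knockout libraries. The genotypes did not overlap (log2 0.72 ± 0.08 and 0.84 ± 0.08, limma adjusted p = 2.4e-08 and 1.3e-09). H2BC8 (chromosome 6, 26215159 to 26216692, minus strand) measured 2.52, 2.58, 2.12 and 1.98 CPM in control and 4.85, 4.69, 4.12 and 4.71 CPM in knockout libraries under vehicle, and 1.31, 1.40, 1.27 and 1.25 against 2.38, 2.83, 2.89 and 2.54 CPM under abemaciclib. Knockout cells again lay above control cells in every library, with ratios of means of 1.997 and 2.03 (log2 0.76 ± 0.11 and 0.66 ± 0.11, adjusted p = 1.1e-06 and 1.5e-05).

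H2AC18 and H2AC19 are near-identical H2A genes of 1q21 (chromosome 1, 149842218 to 149842750 and 149851061 to 149851594, RefSeq). Their values were the same in 8 libraries and differed by at most 0.106 CPM elsewhere, so the pair is read as 1 measurement of shared reads. H2AC18 measured 21.2, 21.2, 22.4 and 20.6 CPM in control and 31.4, 31.3, 31.1 and 32.9 CPM in knockout libraries under vehicle. Under abemaciclib it measured 19.01, 18.5, 18.8 and 19.2 CPM in control and 30.7, 27.1, 27.6 and 27.7 CPM in knockout libraries, and H2AC19 gave the same values within the difference above. The genotypes were apart by a log2 difference of 0.55 ± 0.06 and 0.56 ± 0.06 (limma adjusted p = 1.1e-09 and 1.2e-09). H4C8, whose values are given above, was also higher in knockout cells (log2 0.47 and 0.68, adjusted p = 0.0047 and 0.00013), with overlap of the genotypes under vehicle. Of the 3 H3 genes, 2 were higher under vehicle and all 3 under abemaciclib.

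H4C3 was lower in knockout cells under both treatments. Of the 6 linker histones, 5 were lower under vehicle, while under abemaciclib 1 was lower and 1 higher. H4C3 stood at 49.8% of the control level under vehicle and 64.2% under abemaciclib (log2 -1.003 ± 0.09 and -0.65 ± 0.09, limma adjusted p = 1.6e-10 and 1.4e-06). H1-10 was lower under vehicle (-0.13 ± 0.03, adjusted p = 0.0034) and not called under abemaciclib (-0.05, adjusted p = 0.34). After quantile normalization the first was lost (adjusted p = 0.067) and the second became a call (-0.11, adjusted p = 0.012). H1-3, H1-4 and H1-5 were lower under vehicle (-0.46, -0.51 and -0.51, adjusted p = 0.026, 0.011 and 0.0097) and not called under abemaciclib (-0.12, -0.32 and -0.05, adjusted p = 0.62, 0.14 and 0.86). The genotypes overlapped for H1-3 and H1-5. All 3 calls were lost with a pseudocount of 0.1 (adjusted p = 0.27, 0.062 and 0.1). Leaving out 1 vehicle library also ended them: control replicates 1 and 4 and knockout replicates 1 and 4 for H1-3, control replicate 3 and knockout replicate 2 for H1-4, and control replicate 3 and knockout replicate 3 for H1-5 (adjusted p from 0.05 to 0.14). The H1-3 call was also lost with a pseudocount of 0.5, without the filter, without the trend and with voom (adjusted p = 0.066, 0.15, 0.053 and 0.054). That of H1-4 was lost without the filter (adjusted p = 0.087). Under abemaciclib H1-4 became a call without control abemaciclib replicate 4 (-0.43, adjusted p = 0.046). H2BC12 had the smallest called difference of the 18, higher under abemaciclib by 0.10 (adjusted p = 0.032), and did not pass after rescaling (0.056, adjusted p = 0.33). The H2BC12 call was also lost after quantile normalization (0.040, adjusted p = 0.46), without the filter (adjusted p = 0.069) and without the trend (adjusted p = 0.083). It was lost as well without control abemaciclib replicate 1 or 2, or knockout abemaciclib replicate 1, 3 or 4 (adjusted p from 0.054 to 0.13).

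**Figure D3:**
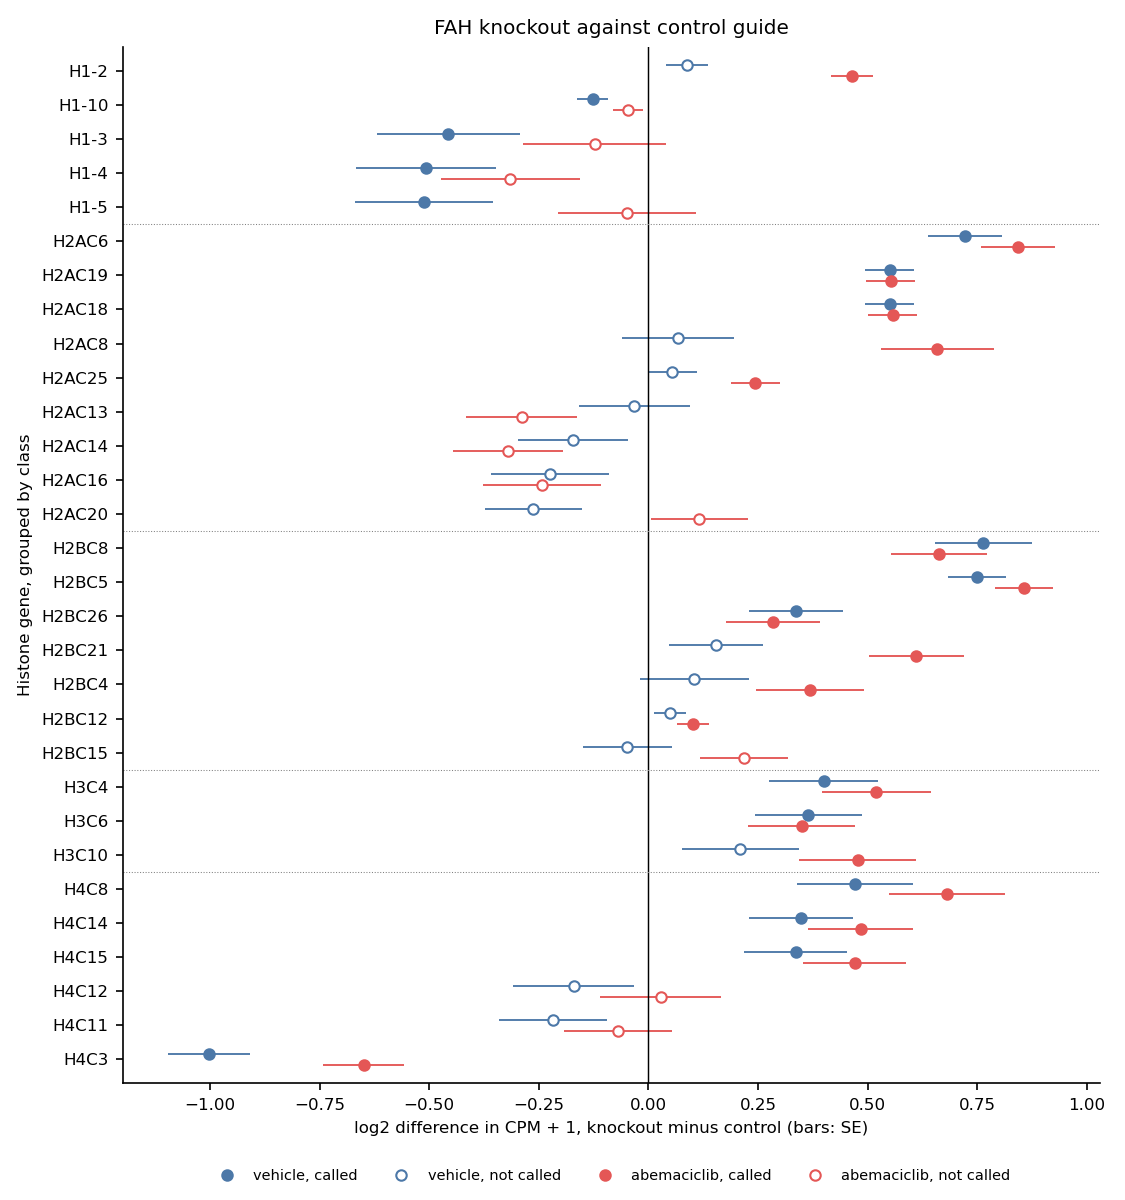
Log2 difference of knockout minus control in CPM + 1 (horizontal axis) for 30 of the 31 tested members (vertical axis, grouped by class) under vehicle and abemaciclib; points are limma estimates, bars are SE, and filled points are calls. H4C3 lies at -1.003 and -0.65, while H2BC5 lies at 0.75 and 0.86.

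The interaction asks whether abemaciclib changed a gene differently in the 2 genotypes. It was positive, a smaller fall in knockout cells, for 3 of 31 members, and negative for 0 (also 0 at an unadjusted p under 0.05 and with voom), where 4.68% of all genes were called positive and 6.16% negative. H1-2 (chromosome 6, 26055787 to 26056428, minus strand) measured 56.5, 56.0, 61.0 and 55.2 CPM in control vehicle libraries and 37.8, 37.5, 35.8 and 34.9 CPM with abemaciclib. In knockout cells it measured 59.4, 61.7, 61.8 and 60.3 CPM with vehicle and 47.4, 54.3, 50.5 and 50.9 CPM with abemaciclib. The genotypes overlapped under vehicle and stood apart under abemaciclib. The drug left 63.8% of H1-2 in control and 83.5% in knockout cells (interaction log2 0.38 ± 0.07, limma adjusted p = 2.0e-04), and the call held when any 1 of the 16 libraries was left out (adjusted p from 9.4e-05 to 8.9e-04).

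H2AC8 (chromosome 6, 26216975 to 26217483, plus strand) measured 5.66 to 8.17 CPM and 2.38 to 3.68 CPM in control cells without and with the drug, and 6.18 to 8.78 and 4.63 to 6.79 CPM in knockout cells. H2BC21 (chromosome 1, 149884459 to 149886652, minus strand) measured 7.78 to 10.1 and 3.46 to 4.39 CPM in control cells, and 9.31 to 10.9 and 5.21 to 7.77 CPM in knockout cells. For both genes the treated control libraries lay below all others. Their interaction terms were 0.59 (limma adjusted p = 0.03) and 0.46 (adjusted p = 0.048). Both calls were lost without the filter on low values (adjusted p = 0.17 and 0.18) and without the trend (adjusted p = 0.087 and 0.084). Leaving out 1 library ended the H2AC8 call for 7 of 16 libraries and the H2BC21 call for 10 of 16. These were control vehicle replicates 1 to 3, control abemaciclib replicates 3 and 4, knockout vehicle replicate 2 and knockout abemaciclib replicate 3 for H2AC8. For H2BC21 they were control vehicle replicates 1 to 3, control abemaciclib replicates 1 and 2, knockout vehicle replicates 1 to 3 and knockout abemaciclib replicates 3 and 4. H4C3 was not called (0.35, adjusted p = 0.082), but was without control abemaciclib replicate 2 (0.42, adjusted p = 0.04) or without knockout abemaciclib replicate 2 (0.48, adjusted p = 0.0065).

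The values of back-to-back partners are set side by side. H2AC6 was higher in knockout cells by 0.72 and 0.84 on the log2 scale, as given above, while H2BC4 across the same 245 bases differed by 0.10 (limma adjusted p = 0.54) under vehicle and 0.37 (adjusted p = 0.023) under abemaciclib. H2BC8 was higher by 0.76 and 0.66, while H2AC8 across 232 bases differed by 0.07 (adjusted p = 0.71) and 0.66 (adjusted p = 1.3e-04). H2BC26 was higher by 0.34 and 0.28 (adjusted p = 0.012 and 0.042), while H2AC25 differed by 0.05 (adjusted p = 0.48) and 0.24 (adjusted p = 0.001). H2BC21 differed by 0.15 (adjusted p = 0.28) and 0.61 (adjusted p = 3.7e-05), and H2AC20 by -0.26 (adjusted p = 0.059) and 0.12 (adjusted p = 0.47). The difference between partners was not tested, and the partners H2BC4, H2BC26 and H2AC20 are named for their place in a pair, after their values were seen.

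The calls are also given by the annotated 3′ end, split into members with 100 or more bases after a stem-loop match and all others. A member was placed by its longest annotated stretch after the match. H4C8 also has a transcript with 18 bases there, and another member of the 10 has one with 5. The longest stretches of H4C8, H4C14, H4C15 and H2AC6 lie in transcripts annotated for nonsense-mediated decay. Over all genes 24.6% were higher and 13.1% lower under vehicle, and 18.6% and 11.3% under abemaciclib. Of the 10 with 100 or more annotated bases after the stem-loop, 6 were higher in knockout cells under vehicle, with a median log2 difference of 0.34, and 9 were higher under abemaciclib, with a median of 0.48. Of the 21 other tested members, 5 were higher and 6 lower under vehicle, with a median of -0.13, and 9 were higher and 2 lower under abemaciclib, with a median of 0.03. With abemaciclib against vehicle the medians were -0.51 and -0.44 in control cells and -0.43 and -0.45 in knockout cells. The split was made after these values were seen and has no test. It is not by length alone. The 21 others include H1-10 and H2BC5, which had no match in annotated transcripts of 1507 and up to 789 bases. They also include H2AC18 and H2AC19, which were not found in the GENCODE v29 transcripts. H2BC12, H2AC20 and H4C12 are among them too, with no match in their only annotated transcripts, of 381, 390 and 312 bases. The 10 include H4C14 and H4C15, which share reads.

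Summed over the 73 members, histone RNA was 1277 ± 32.8 CPM in control cells under vehicle and 659 ± 16.7 under abemaciclib, and 1109.9 ± 25.6 and 702 ± 7.74 CPM in knockout cells (mean ± SD, n = 4). Control cells thus kept 51.6% and knockout cells 63.2% of their vehicle sum. H4C3 alone made up 27% of the member sum in control cells under vehicle, 15.5% in knockout cells under vehicle, and 8.87% and 5.35% under abemaciclib. Without H4C3 the sums were 933 ± 5.46 and 938 ± 16.1 CPM under vehicle and 601 ± 11.4 and 664 ± 6.89 CPM under abemaciclib, for control and knockout cells. Under vehicle the genotypes then overlapped, and under abemaciclib they did not. Over all 6p22 members the sums were 643 ± 27.3 CPM in control and 501 ± 20.4 CPM in knockout cells under vehicle, with every knockout library lower, and 280.4 ± 9.50 and 315 ± 8.29 CPM under abemaciclib, with every knockout library higher. Without H4C3 the 6p22 sums were 298 ± 6.74 and 329.6 ± 5.56 CPM under vehicle and 222 ± 6.24 and 278 ± 3.22 CPM under abemaciclib. Over the 1q21 members they were 66.8 ± 1.37 and 89.4 ± 2.77 CPM under vehicle and 47.9 ± 1.97 and 71.7 ± 3.09 CPM under abemaciclib. Every knockout library lay above every control library for the 1q21 sum and for the 6p22 sum without H4C3, under either treatment. The 1q21 sum holds both H2AC18 and H2AC19, whose means under vehicle were 21.3 CPM each in control and 31.7 CPM each in knockout cells. Most of the 1q21 difference under vehicle thus lies in this pair of shared reads. Means under vehicle in control and knockout cells were 8.82 and 9.89 CPM for H2BC21 and 3.80 and 5.10 CPM for H4C14. They were 3.68 and 4.89 CPM for H4C15, and H2AC20 went the other way, at 6.86 and 5.55 CPM. No 1q21 sum without H2AC18 and H2AC19 was made, so a difference across the other 1q21 members was not tested. The 2 genes of 1q42 summed to 48.5 ± 2.90 and 51.9 ± 2.02 CPM under vehicle, with overlap, and 32.8 ± 1.74 and 39.2 ± 1.92 CPM under abemaciclib, without. The 5 genes outside the clusters went the other way, with a lower sum in every knockout library under either treatment.

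**Figure D4:**
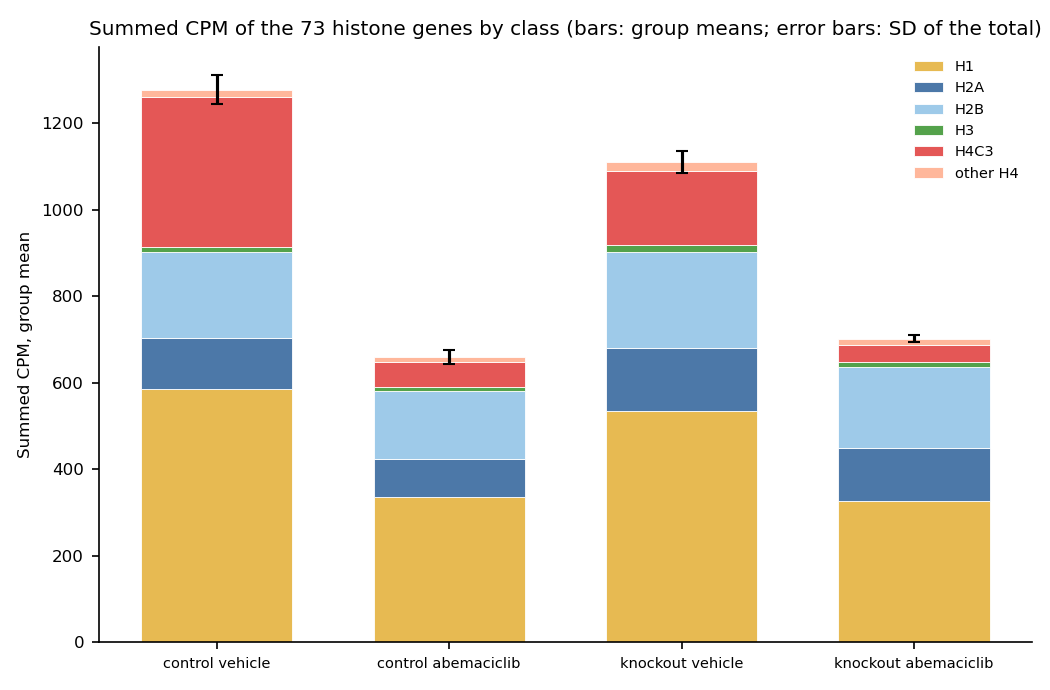
Summed CPM of the 73 members (vertical axis, from 0) in the 4 groups (horizontal axis), stacked by class with H4C3 shown apart; segments are group means and bars are the SD of the total (n = 4). The H4C3 segment shrinks from 345 to 58.5 CPM with abemaciclib in control cells and is 172 CPM in knockout cells under vehicle.

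Genes that make, process and use histones are set beside the members. Over all tested genes 31.1% fell with abemaciclib in control and 27.4% in knockout cells. Of 21 tested genes for histone transcription and mRNA processing, 15 fell with abemaciclib in control cells and 16 in knockout cells, with medians of -0.28 and -0.30. CCNE2, which encodes cyclin E2, fell from 25.5 ± 1.65 to 5.83 ± 0.657 CPM in control and from 23.6 ± 1.65 to 2.01 ± 0.341 CPM in knockout cells (log2 -1.96 and -3.03, limma adjusted p = 7.3e-19 and 3.2e-24). SLBP, the stem-loop binding protein, fell (-0.81 and -0.84), as did CDK2 (-0.82 and -0.90) and, in control cells, POU2F1, which encodes the octamer-binding OCT1 (-0.59). Between genotypes 4 were higher and 1 lower under vehicle and 2 were higher and 2 lower under abemaciclib, no more than the all-gene shares of 24.6% and 13.1% and of 18.6% and 11.3% give. SLBP and NPAT, named for their roles after their values were seen, were not called: SLBP differed by -0.04 (adjusted p = 0.56) and -0.08 (adjusted p = 0.33), and NPAT by -0.03 (adjusted p = 0.80) and -0.04 (adjusted p = 0.73).

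Of 24 histone chaperone and chromatin assembly genes, 16 fell and 2 rose with abemaciclib in control cells and 18 fell in knockout cells. ASF1B, an H3-H4 chaperone, fell in both genotypes (log2 -1.47 and -2.24), as did HJURP, the chaperone of CENPA (-2.54 and -2.93). CHAF1A, a subunit of chromatin assembly factor 1, changed by -1.30 in knockout cells. Under vehicle 6 were higher and 3 lower in knockout cells, near the all-gene shares of 24.6% and 13.1%, a split that turned to 2 higher and 6 lower after rescaling. Under abemaciclib 3 were higher and 5 lower, among them ASF1B (-0.82) and CHAF1A (-0.68).

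Of 10 tested replacement histone genes outside the clusters, all 10 fell with abemaciclib in control cells and 9 in knockout cells. CENPA, the centromeric H3, fell (log2 -2.76 and -3.31), as did H2AX, the H2A form phosphorylated at DNA breaks (-2.16 and -2.12). In knockout cells under vehicle 5 were lower, the largest difference being H2AZ1 at -0.43 (limma adjusted p = 1.3e-11), and 1 was higher. Over all genes 13.1% were lower and 24.6% higher. The interaction of the replacement histone genes was positive for 5 of 10 and negative for 1, against 4.68% and 6.16% of all genes. After quantile normalization these counts were 2 and 2.

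All 25 tested genes of DNA replication and S phase fell with abemaciclib in both genotypes, with medians of -1.10 in control and -1.43 in knockout cells. RRM2, a subunit of ribonucleotide reductase, fell (log2 -3.00 and -4.19), as did TK1, thymidine kinase (-2.24 and -3.14). In knockout cells 11 of 25 were lower under vehicle, against 13.1% of all genes, and 24 of 25 under abemaciclib, against 11.3%. The medians of these 25 were -0.14 and -0.54. Their interaction was negative for 16 of 25, against 6.16% of all genes, while the 3 interaction calls among the histone genes were positive. H4C3 was also lower in knockout cells, whereas 18 of the 31 histone genes were higher there under abemaciclib.

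**Figure D5:**
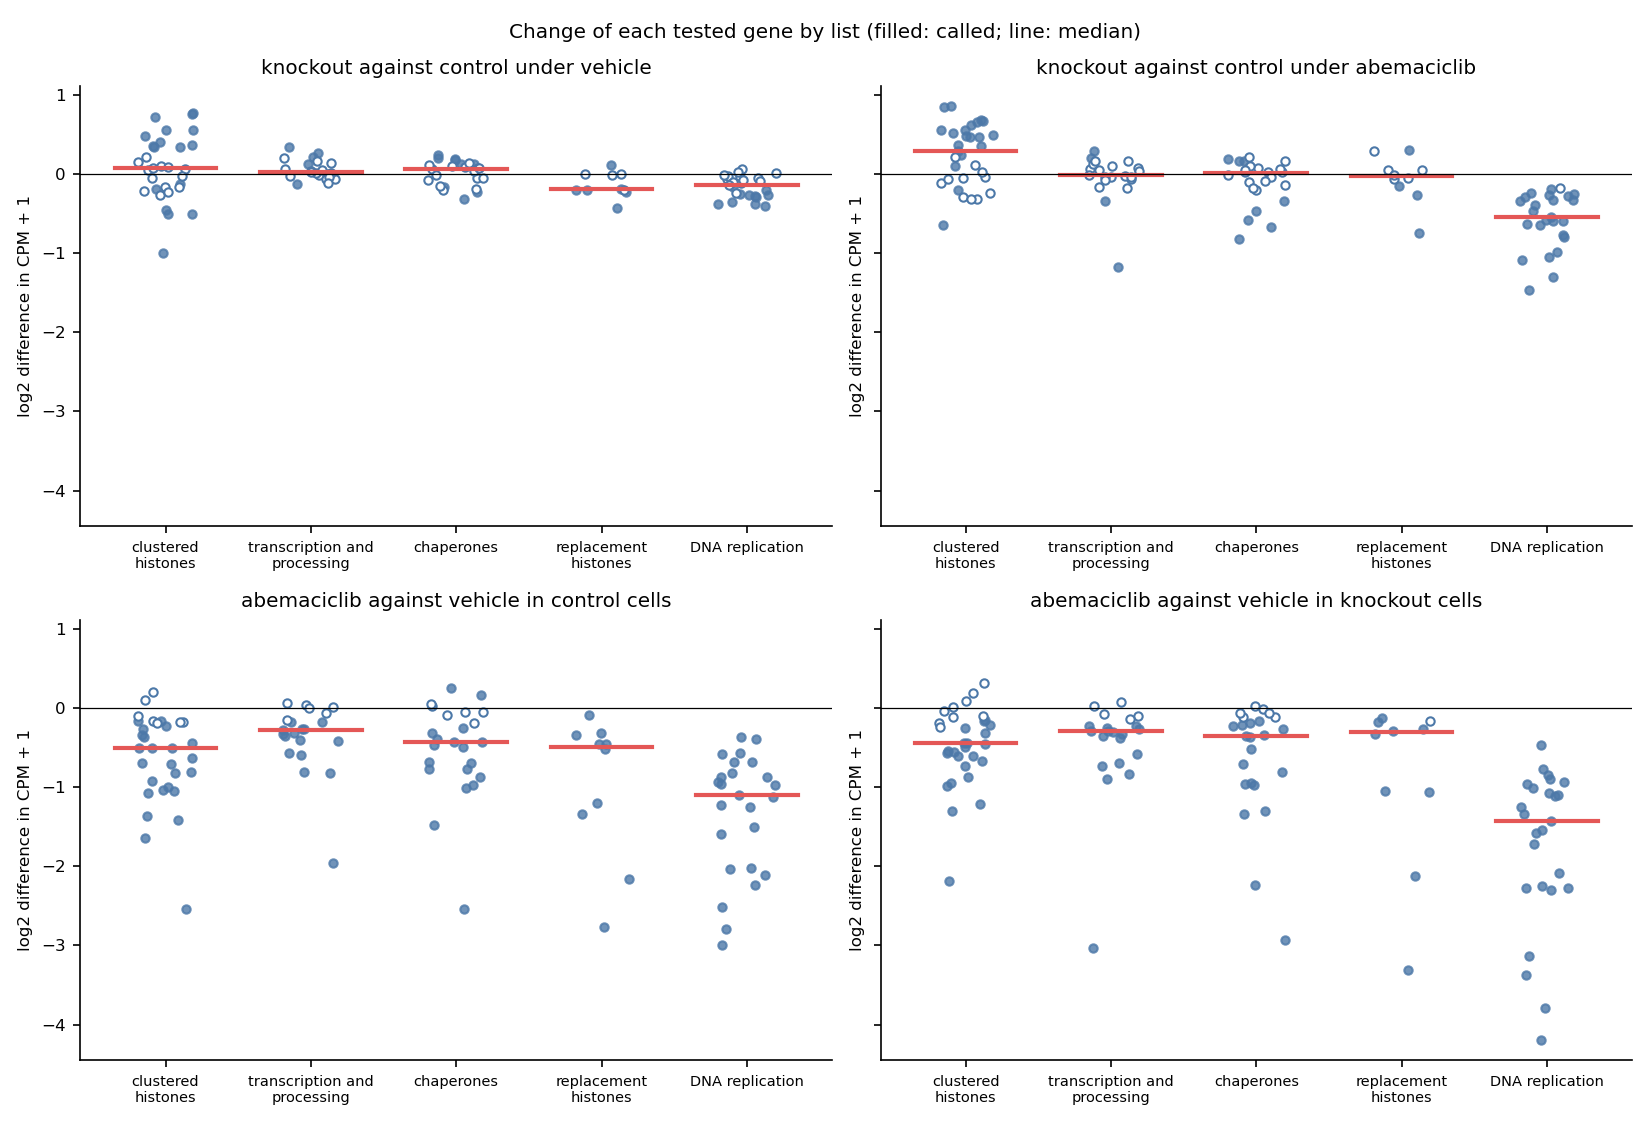
Log2 difference in CPM + 1 (vertical axis) of each tested gene in the clustered histones and the 4 other lists (horizontal axis) for the 2 comparisons of genotype (top) and the 2 of treatment (bottom); filled points are calls and lines are medians. Under abemaciclib the median of the histone genes is 0.28 between genotypes, and that of the DNA replication genes is -0.54.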

How the data were processed

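RNA of T47D cells was sequenced in 16 libraries, 4 in each of 4 groups, which the titles in the labels gave. Per the submitters' processing notes, the tools were STAR 2.7.11, SAMtools 1.22.1, featureCounts of Subread 2.1.1 and MultiQC 1.32, and the genome was GRCh38. Annotation release, strand setting and the counting of reads with several matches: not given in the sources used here. The authors deposited CPM, counts per 1000000 assigned reads, and each column sums to that total. Of the values above 0, 70.2% to 71.8% were whole numbers of reads (within 0.02 reads), so the table holds shared reads and no count test was run. Members whose values were whole in 8 or fewer of 16 libraries, 14 of the 31 tested, may share reads with similar or overlapping genes: of those named in the text these are H2BC12, H2AC25, H2AC18, H2AC19, H2BC21, H2AC20, H2BC26, H4C11 and H4C12. The rule does not find all sharing: H4C14 and H4C15, which share reads, were whole in 11 libraries each.

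Genes that reached 1 CPM in 4 or more libraries were tested with limma 3.58.1 (R 4.3.3, trend) on log2(CPM + 1), with all 16 libraries in 1 fit of 4 group means and 5 contrasts, after tests on simulated data. Calls are Benjamini-Hochberg adjusted p-values under 0.05 over all 16218 genes. Members and lists were chosen with earlier results of these data known. Values in every library are given for members with a mean of at least 10 CPM in a group (for H2AC19 through its near-identical copy), and the 3 called members with the largest rise and the 3 with the largest fall in each comparison are named, but for 1 member that is not reported here. No value above 0 was identical between libraries of a group, which unlike depths alone would give. Between libraries of a group, the chi-square per degree of freedom on estimated reads ran from 1.31 to 4.72. In control vehicle it ran from 1.34 to 1.80. Whether the libraries were technical replicates was not tested. Alternatives were pseudocounts of 0.1 and 0.5, no filter, a filter of 5 CPM, median-of-ratios rescaling, quantile normalization, no trend, voom, a replicate block and leaving out each library. Gene coordinates came from GENCODE v29 (GRCh38), or from RefSeq (GRCh38.p14) where named.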

Additional observations from a re-analysis of the deposited data

Results flagged for a closer look

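In 5 of 68 groups of 4 libraries, 1 library stood apart from the other 3 by Dixon's criterion, which chance meets in about 1 of 20 groups. These were H1-10 in control vehicle replicate 4 (352 CPM, the highest of its group), H2AC18 in knockout abemaciclib replicate 1 (30.7 CPM, the highest), H2AC19 in knockout vehicle replicate 4 (32.9 CPM, the highest), H2AC25 in knockout abemaciclib replicate 2 (33.3 CPM, the lowest) and H2AC6 in knockout vehicle replicate 2 (17.0 CPM, the lowest). For 3 genes the effect of abemaciclib differed between the genotypes by the interaction test of limma: H1-2 (log2 0.38), H2AC8 (0.59) and H2BC21 (0.46).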

How the results depend on the processing

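Counts of called members kept within 1.5 times under most settings, with these exceptions. For knockout against control under vehicle, 6 were higher with the filter of 5 CPM and 7 after quantile normalization, and 3 were lower with a pseudocount of 0.1. Under abemaciclib, 4 were lower without the trend. For abemaciclib against vehicle, 14 fell in control and 12 in knockout cells with the filter of 5 CPM, which leaves fewer genes to test. In knockout cells 1 rose after rescaling and 1 with voom, and 2 rose after quantile normalization. The interaction gave 1 positive call without the filter and 1 without the trend. With the replicate block, 1 member rose with abemaciclib in knockout cells in place of 0, and 17 members in place of 18 were higher in knockout cells under abemaciclib. The numbers did not pair the libraries: deviations of same-numbered libraries correlated at -0.0367 to 0.0603, and in 9 of 16 libraries the mean correlation was higher with the own number than with the others.

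Rescaled sums were 689 CPM (control abemaciclib), 1055 (knockout vehicle) and 711 (knockout abemaciclib). A planned sum over fewer members is not reported.

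Leaving out 1 library gave 9 to 11 higher and 5 to 6 lower members (knockout against control, vehicle), 15 to 18 and 2 to 4 (abemaciclib), 0 to 1 and 22 to 24 (abemaciclib against vehicle, control), 0 to 1 and 20 to 23 (knockout), and 1 to 4 positive and 0 negative interactions. The 4 lower members under abemaciclib came without control abemaciclib replicate 2, and the 1 higher member with the drug without control abemaciclib replicate 4 (control) and without knockout vehicle replicate 3 or knockout abemaciclib replicate 4 (knockout). Leaving out any of replicates 1 to 3 of control vehicle, replicate 2 of knockout vehicle or replicate 3 of knockout abemaciclib kept 1 positive interaction. The sums then ranged over 1267 to 1293, 652 to 665, 1099 to 1119 and 699.6 to 705 CPM in control vehicle, control abemaciclib, knockout vehicle and knockout abemaciclib.

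Among the 16 members named by rule, the signs that turned were of values that were not called as reported. For knockout against control under vehicle these were H2AC25 (-0.0085) and H2BC12 (-0.015) after rescaling and H2AC8 (-0.012) after quantile normalization. Under abemaciclib it was H1-3 (0.020) with voom, and for abemaciclib in knockout cells H2AC6 (0.043 after rescaling, 0.071 after quantile normalization). For the interaction they were H1-10 (-0.032) and H2BC12 (-0.0058) after quantile normalization, and H1-4 (-0.063) and H2BC8 (0.0060) with voom. Leaving out 1 library gave -0.036 to 0.158 for H2AC8 between genotypes under vehicle, -0.104 to 0.0366 for H1-5 under abemaciclib and -0.0061 to 0.156 for H4C8 with abemaciclib in control cells. For the interaction it gave -0.0316 to 0.0267 for H2AC18 and -0.0359 to 0.0210 for H2AC19. The cause was not tested.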
